A study of Mus musculus with 241 samples.

Results

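Cd3 and pre-TCR cells are thymocytes that carry many transcripts of the CD3 chains together with those of Ptcra or Rag1. They were taken from the 2 droplet single-cell libraries (10x), from barcodes that held at least 1000 genes and kept their mitochondrial share under 10% of UMIs (unique molecular identifiers, each counting 1 captured RNA molecule). A cell belonged to the class if its UMIs of Cd3d, Cd3e and Cd3g summed to at least 3, those of Ptcra and Rag1 to at least 2, and those of Gzma and Sh2d1a to under 2. These 7 genes chose the cells, so their values are given as a description without a test. The rule found 411 cells among 13312 filtered cells of 13873 barcodes. They were 2.95% of the 4878 filtered cells in replicate 1 (exact 95% interval 2.50% to 3.47%) and 3.17%, or 267, of the 8434 in replicate 2 (2.80% to 3.56%), a mean of 3.06% ± 0.15 (SD, n = 2 libraries).

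Both 10x libraries were made from thymus of untreated wild-type (WT) C57BL/6 mice, from cells sorted as Lin- 7AAD- CD44+ Kit+, the gate of early T-cell progenitors (ETP) and of the next stage, DN2. The labels do not tie the 2 libraries to separate mice, so the replicate error behind the p-values below may be technical error alone. The series also holds single cells captured on the C1 chip, whose rule-chosen counterparts are counted below, and 12 bulk libraries of sorted cells. The bulk cells came from thymus of untreated C57BL/6 Bcl11byfp/yfp mice, in which YFP reports Bcl11b, and were Lin- 7AAD- CD44+ Kit+ cells that were CD25- (total ETP, or split into Flt3+ and Flt3- ETP) or CD25+ (DN2a, split into YFP- and YFP+ cells). The bulk libraries were made with NEBNext Ultra or, for 4 of them, SMART-Seq v4. Ages and numbers of mice are not given in the sources used here.

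T-cell progenitors in the thymus receive Notch signals from the stroma and lose access to other blood lineages as Bcl11b comes on. The CD3 chains (Cd3d, Cd3e, Cd3g and the zeta chain Cd247) carry signals of the T-cell receptor. Rag1 and Rag2 cut the receptor gene segments, Dntt (terminal transferase) adds bases at the joints, and Ptcra encodes the invariant chain that pairs with a newly made beta chain to form the pre-TCR. These products are best known from DN3 cells, which follow DN2 and have lower surface Kit and CD44 than the cells of the sort gate.

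Depth set these cells apart from the rest of both libraries. Their median was 3618.5 UMIs and 1403.5 genes per cell in replicate 1, where all other filtered cells had medians of 8593.5 UMIs and 2368.5 genes. In replicate 2 the medians were 3049 UMIs and 1264 genes against 6226 UMIs and 1995 genes. The middle 90% of the cells lay between 2368 and 10967 UMIs in replicate 1 and between 2160 and 8620 in replicate 2. Mitochondrial transcripts made a median of 4.26% and 4.66% of their UMIs, against 3.72% and 4.17% in all other cells. The libraries held 5006 and 8867 barcodes with 43734920 and 55522900 UMIs, and 57 barcodes occurred in both. Of the Cd3 and pre-TCR cells, 2 in replicate 1 and 0 in replicate 2 carried such a barcode. No doublet caller was run.

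**Figure D1:**
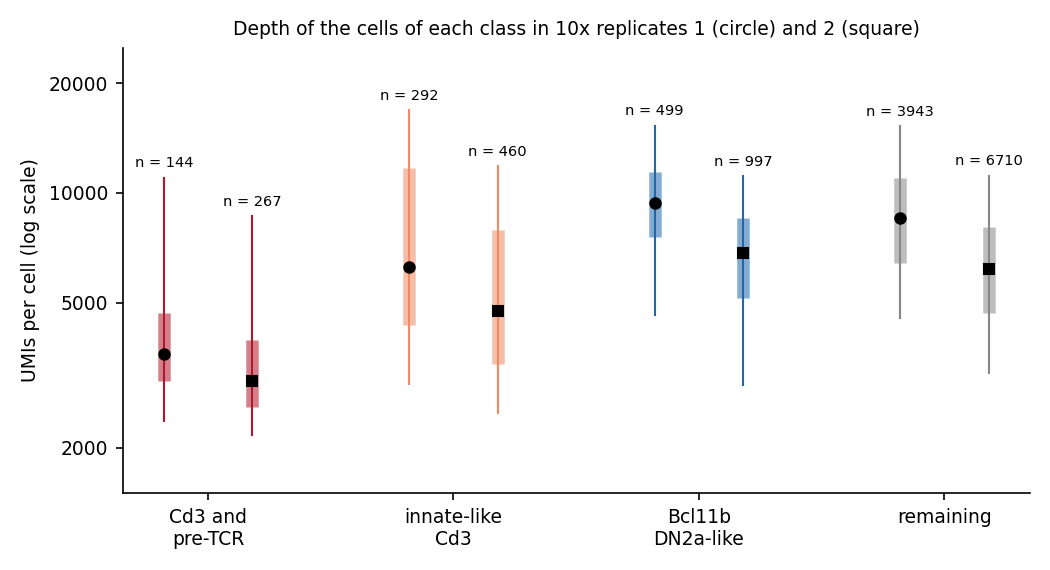
UMIs per cell (log scale) in the Cd3 and pre-TCR cells, the innate-like Cd3 cells, the Bcl11b DN2a-like cells and the remaining filtered cells of each 10x library. Points are medians, thick bars the middle 50% and thin lines the middle 90% of cells. The medians of the Cd3 and pre-TCR cells, 3618.5 and 3049, lie below those of every other class in the same library.

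Among the genes of the rule, the CD3 chains were far above their threshold and Ptcra and Rag1 lay close to theirs. The 3 CD3 genes summed to a median of 21 UMIs per cell in replicate 1 and 17 in replicate 2, with highest values of 50 and 52. Cd3g was found in 100% and 98.9% of the cells, Cd3d in 94.4% and 96.3%, and Cd3e in 93.8% and 90.3%. All 3 were found in 88.9% and 85.8%. Ptcra and Rag1 together had a median of 4 and 3 UMIs. Ptcra was found in 95.1% and 91.4% of the cells and Rag1 in 63.9% and 73%. Both were found in 59% and 64.4%, Ptcra without Rag1 in 36.1% and 27%, and Rag1 without Ptcra in 4.86% and 8.61%. Gzma and Sh2d1a, whose sum the rule holds under 2, were not absent. Gzma was found in 22.2% and 22.5% of the cells and Sh2d1a in 28.5% and 17.6%, each time with 1 UMI. A cell with 1 such UMI lay 1 UMI from the innate-like Cd3 cells defined below. As a background, cells rich in neutrophil granule transcripts (21 in replicate 1 with a median of 16285 UMIs, 19 in replicate 2 with 11060) had a UMI of Cd3g in 1 and 0 cells and of Ptcra or Rag1 in none, which with so few cells allows shares of up to 14.3% and 15.8% (3 cells of the total; counting error only).

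The upstream sequences of Ptcra and Rag1, the genes whose summed UMIs the rule asks for, are shown as the 250 bases before each start in RefSeq's promoter table for GRCm38.p6. Both genes lie on the minus strand, and each sequence reads 5′ to 3′ along the gene. Capitals mark CAGNTG, an E-box of the kind bound by E proteins such as those of Tcf3 and Tcf12, and TGGGAA, the core bound by RBPJ downstream of Notch, both searched on both strands. The windows are chr17:46763713-46763962 for Ptcra and chr2:101649533-101649782 for Rag1.
Ptcra: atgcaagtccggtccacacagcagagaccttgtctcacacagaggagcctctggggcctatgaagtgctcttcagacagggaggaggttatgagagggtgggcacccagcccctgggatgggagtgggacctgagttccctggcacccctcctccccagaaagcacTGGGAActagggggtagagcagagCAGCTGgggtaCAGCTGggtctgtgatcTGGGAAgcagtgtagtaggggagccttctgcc
Rag1: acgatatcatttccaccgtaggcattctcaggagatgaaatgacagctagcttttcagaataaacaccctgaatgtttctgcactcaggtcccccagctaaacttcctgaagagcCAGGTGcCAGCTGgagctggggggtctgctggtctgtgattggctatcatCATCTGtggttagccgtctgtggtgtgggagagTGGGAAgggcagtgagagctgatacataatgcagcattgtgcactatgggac
The Ptcra window held 2 matches of CAGNTG and 2 of TGGGAA, and the Rag1 window 3 and 1, with no overlap between matches of different motifs. The window of Notch3, which was also searched and is not printed, held 0 of each. Of 32851 windows of 250 bases in the table, 44.8% held CAGNTG and 21.6% held TGGGAA. A match describes the letters of this window and does not show binding.

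The thresholds bear on the class unequally. Asking for at least 2 or at least 5 CD3 UMIs changed its size from 411 cells to 414 or 405. Asking for at least 1 or at least 4 UMIs of Ptcra and Rag1 gave 549 cells or a mean share of 1.48%. Cells just outside, with at least 3 CD3 and exactly 1 Ptcra or Rag1 UMI, numbered 28 and 110, and those just inside, with exactly 2, numbered 30 and 83. Notch3, which the rule did not use, was at 55.5 and 54.1 CPM (the UMI count of a gene scaled by all UMIs of the summed cells) in the former and 118.9 and 116.97 in the latter. Bcl11b was at 500 and 673 CPM just outside and 797 and 839 just inside. On the third criterion, cells that met the others were deeper where they held more Gzma and Sh2d1a. They had a median of 3657 and 3002.5 UMIs where Gzma and Sh2d1a summed to 0, 4253.5 and 3599.5 where they summed to 2, and 5898 and 5128.5 where they summed to at least 4.

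The label of committed thymocytes was held against genes the rule did not use. Bcl11b, the transcription factor whose onset marks commitment, had a UMI in 97.2% and 93.6% of the cells, against 25.6% and 26.7% of all other filtered cells. Spi1, the progenitor factor PU.1, had one in 6.94% and 4.87%, against 54.8% and 45.7%. Il2ra, which encodes CD25, had one in 79.2% and 73%. Neither Bcl11b nor Il2ra was particular to these cells. The innate-like Cd3 cells defined below had Bcl11b at 537 and 562 CPM, where these cells had 937 and 875. They had Il2ra at 303 and 299 CPM, where these cells had 484 and 462. Cd4, Cd8a and Cd8b1, the coreceptors of later thymocytes, had a UMI in 1 cell of replicate 1 and 0 of 267 in replicate 2. The latter allows up to 1.12% of cells with a UMI and sets no limit on cells that express these genes, which at a median of 3049 UMIs can be missed. The constant-region genes of the receptor chains (Trbc1, Trbc2, Trac, Trdc and 3 gamma genes) were not analysed here.

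The transcripts of the 2 surface proteins of the sort gate were rare in these cells. Kit had a UMI in 6.94% of them in replicate 1 (exact 95% interval 3.38% to 12.4%) and 10.1% in replicate 2 (6.77% to 14.4%), against 54.1% and 45.5% of all other cells. Cd44 had one in 5.56% (2.43% to 10.7%) and 2.25% (0.829% to 4.83%), against 36.3% and 29%. Neither gene was found in 88.2% and 89.1% of the cells, against 31.3% and 40.2% of all others. With every cell thinned to 2000 UMIs, which left out 2 cells of replicate 2, Kit was found in 2.78% and 6.42% against 18.2% and 19.1%, and Cd44 in 0.694% and 0.755% against 10.4% and 11%. On the summed level, Kit stood at 20.1 and 40.9 CPM in these cells and at 96.4 and 103.8 in all others. The levels did not overlap, though the share of all genes without overlap was not computed. The fall of 1.72 ± 0.17 (SE) on the log2 scale had an edgeR adjusted p of 1.8e-21. The fall was 2.73 in cells of at most 5000 UMIs. Low Kit and Cd44 was shared with the innate-like Cd3 cells defined below, which had Kit at 19.5 and 19.7 CPM, a UMI of Kit in 12.7% and 9.13% of cells and one of Cd44 in 5.14% and 4.35%. Il2ra with neither Kit nor Cd44, a pattern of transcripts like the surface pattern of DN3 cells, was found in 69.4% and 66.3% of the cells and in 18.2% and 19.7% of all others. The DN2a-like cells defined below, which Il2ra helped to choose, had it in 41.1% and 46.6%. These shares of cells without Kit and Cd44 are at each cell's own depth, and a shallower cell misses a gene more often. They were not computed with thinned cells or for the innate-like cells alone, so the part of depth in them was not tested.

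The first comparison asked how the Cd3 and pre-TCR cells differed from all other filtered cells of the gate. UMIs were summed over the cells of each side in each library and tested with edgeR's quasi-likelihood test with the library as a block, on 11948 genes. Genes passed at a Benjamini-Hochberg adjusted p under 0.05, which 22.7% of genes did (1191 higher, 9.97%, and 1517 lower, 12.7%). The median log2 fold change over all genes tested was -0.07. With 4 sums the fit had 1 residual degree of freedom. Its prior degrees of freedom were infinite, so the p-values use the spread shared by all genes and give a gene's own spread no weight. The other genes were counted in the same cells as the 7 that chose them, so a gene that goes with these 7 from cell to cell had to differ. The difference in depth given above moves with every result of this comparison, and its part in them was not tested. Values in cells of at most 5000 UMIs, a limit set after the data were seen, are given for genes discussed at length whose difference moved by over 1.5 times or lost its call.

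Genes of the recombination machinery and of the receptor complex outside the rule were higher. Of 4 tested genes in this list, 3 were higher and 0 lower, with a median log2 fold change of 1.86 beside -0.07 over all genes. Cd247, the zeta chain, stood at 142.2 and 142.5 CPM in replicates 1 and 2 against 19.3 and 27.7 in all other cells, a log2 fold change of 2.47 ± 0.13 (SE). Rag2, the partner of Rag1 in the recombinase, stood at 57.2 and 54.8 against 9.81 and 10.8. Dntt stood at 964 and 780 against 272 and 348. In each of these genes both libraries were higher in the Cd3 and pre-TCR cells than either library of the other cells. The share of all tested genes without such overlap was not computed, so this does not set these genes apart. Trat1, an adaptor of the receptor complex, did not pass, with 4.64 and 1.99 CPM against 1.5 and 1.62.

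The kinases and adaptors that act below the receptor were mostly higher. Of 17 tested genes of receptor signalling, 10 were higher, 2 lower and 5 did not pass, with a median log2 fold change of 1.26. Lck, the kinase that first phosphorylates CD3, stood at 1257 and 1307 CPM against 348 and 422 (1.65 ± 0.06). Lat, the membrane adaptor, stood at 697 and 717 against 148.95 and 170.7 (2.05 ± 0.07). Themis, a signalling protein of developing T cells, and the costimulatory receptor Cd28 had larger changes, 3.10 ± 0.18 and 2.98 ± 0.26, at lower levels. Themis stood at 91.2 and 107.6 CPM and Cd28 at 46.4 and 41.9. Fyn, a kinase related to Lck, was lower, with 18.5 and 19.9 against 25.4 and 31.2, and so was the surface receptor Cd6. The calls of Fyn and Cd6 were lost with DESeq2 and with thinned cells, as was that of Ubash3a among the higher genes. Fyn and Ubash3a did not pass in cells of at most 5000 UMIs either. Zap70, the kinase that binds phosphorylated CD3, did not pass, with 1.55 and 8.97 CPM against 2.93 and 3.94.

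Of 17 tested T-lineage regulators, 12 were higher, 1 was lower and 4 did not pass, with a median log2 fold change of 1.13. Lef1, an HMG-box factor that acts with Wnt and T-cell enhancers, stood at 105.1 and 149.5 CPM against 10.6 and 10.9 (3.51 ± 0.16). Bcl11b stood at 937 and 875 against 102.2 and 117.5 (2.95 ± 0.07). Ets1, Ets2 and the E protein gene Tcf12 were higher as well, by 2.34, 2.74 and 1.94 on the log2 scale. Tcf7 and Gata3, which start the T-cell program in earlier progenitors, had smaller changes, 0.34 ± 0.09 and 0.65 ± 0.14. In cells of at most 5000 UMIs, Tcf7 differed by 0.02 and Id3, one of the 12 higher regulators, by 0.90 (edgeR adjusted p = 0.098), and neither passed. Runx3 differed by -2.01 there. Runx1 was higher (221.01 and 230 against 91.2 and 101.8) and its relative Runx3 lower (51.0 and 49.8 against 124.1 and 112.7). The 4 that did not pass were Tcf3, Ikzf1, Ikzf3 and Myb. Myb stood at 204.01 and 221.2 against 198.7 and 217.3.

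Of 9 tested genes of the Notch response, 7 were higher, 1 was lower and 1 did not pass, with a median log2 fold change of 1.04. The receptor Notch3 stood at 139.1 and 130.6 CPM against 6.98 and 6.85, a log2 fold change of 4.19 ± 0.18 (edgeR adjusted p = 2.72e-120). Dtx1, a ubiquitin ligase induced by Notch, stood at 105.1 and 70.8 against 7.61 and 6.62 (3.51 ± 0.20). Both genes were higher in each library by more than the libraries differed from each other. How many of all genes were so was not computed. Hes1, a repressor and direct target, stood at 753 and 472 against 314 and 236, and Notch1 at 345 and 340 against 123.4 and 147.5. Nrarp, a feedback inhibitor of Notch, was lower, with 7.73 and 14 against 30.0 and 29.8. Hes5 did not pass, with 3.09 and 1.99 against 7.07 and 6.70. In cells of at most 5000 UMIs on either side, Notch3 differed by 3.07 and Dtx1 by 2.48 on the log2 scale.

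**Figure D2:**
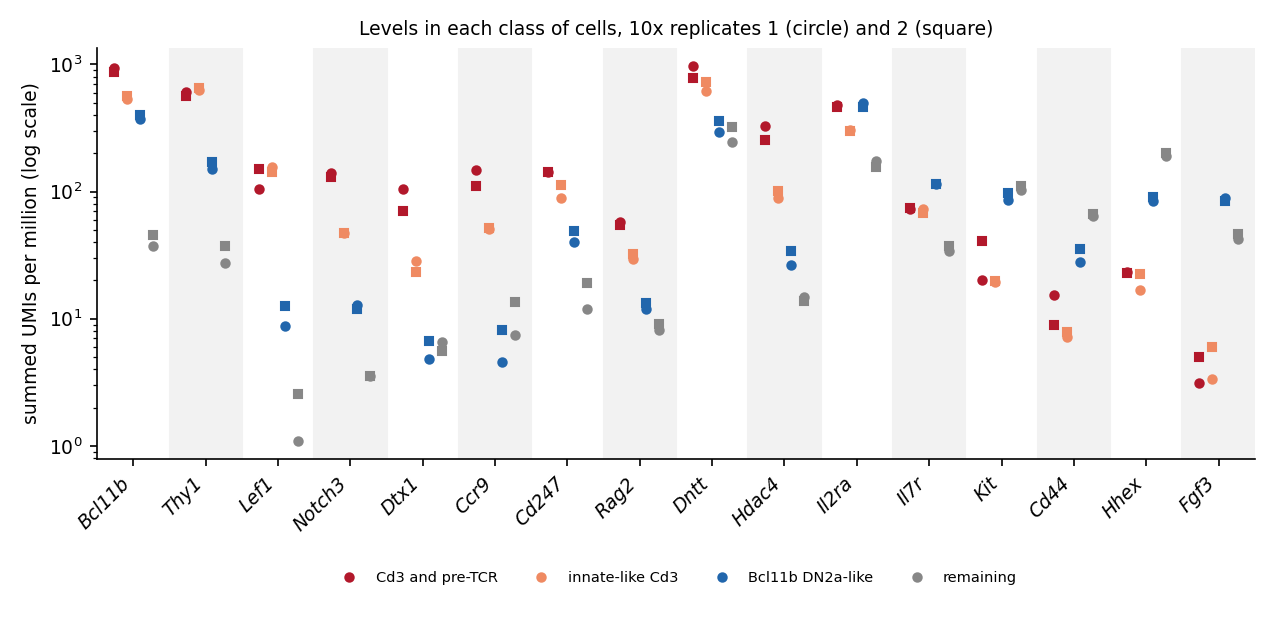
Summed CPM (log scale) of 16 genes in the 4 classes of cells, with 1 point for each 10x library. In Notch3, for example, the Cd3 and pre-TCR cells stand at 139.1 and 130.6, the innate-like Cd3 cells at 46.9 and 47.6 and the Bcl11b DN2a-like cells at 12.9 and 12.

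Genes of uncommitted progenitors were lower. Of 16 tested progenitor regulators, 13 were lower and 0 higher, with a median log2 fold change of -1.99. Hhex, a homeobox factor, stood at 23.2 and 22.9 CPM against 170 and 177.7. Lyl1, a partner of Lmo2, stood at 43.3 and 24.9 against 145.1 and 159.005, and Mef2c at 47.9 and 38.9 against 172.9 and 152.8. Spi1 stood at 26.3 and 16.9 against 102.8 and 105.3 (-2.42 ± 0.20). Of 11 tested progenitor surface genes, 10 were lower and 0 higher, with a median of -2.43, among them Cd34 (30.9 and 27.9 against 162.3 and 184.02) and the ITAM adaptor Tyrobp (51.0 and 76.7 against 396 and 396). Csf1r was the gene of this list that did not pass. The differences were larger in cells of at most 5000 UMIs, at -5.31 for Hhex, -5.17 for Lyl1, -4.25 for Mef2c, -4.54 for Spi1, -6.32 for Cd34 and -5.50 for Tyrobp, where all depths gave -3.01, -2.34, -2.01, -2.42, -2.68 and -2.66. The Cd3 and pre-TCR cells within that limit summed to only 392387 and 676301 UMIs. A fall of such size there rests on few UMIs of the gene, and its exact size is uncertain.

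Among stage markers, Thy1 stood at 606 and 567 CPM against 74.8 and 84.9 (2.78 ± 0.08), and the chemokine receptor Ccr9 at 146.8 and 110.6 against 9.53 and 14.8 (3.27 ± 0.16). Il7r, the receptor chain for interleukin 7, was also higher, with 72.6 and 73.7 against 45.2 and 49, a call that DESeq2 did not make. Of the list of 12 stage markers, 10 were tested, with 6 higher and 2 lower, the latter being Kit and Cd44. Of 7 tested genes of the response to beta-selection, the checkpoint that a working pre-TCR lets cells pass, 2 were higher, 2 lower and 3 did not pass. Cd27, which rises at that checkpoint, stood at 402 and 317 against 226.4 and 233, and Myc at 168.5 and 146.5 against 106.2 and 102.9. The difference of Cd27 was 0.53, and 0.24 in cells of at most 5000 UMIs. The early response genes Egr1, Egr2, Egr3 and Nr4a1 had 0 UMIs in the Cd3 and pre-TCR cells of either library. A count of 0 allows up to 3 UMIs in each library. Nr4a1 was called lower in the fit, from 3.35 and 3.67 CPM in all other cells, but not by DESeq2 or with thinned cells, and in replicate 1 that level lies below what 3 UMIs would give.

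Among genes with a mean log2 CPM of at least 5 that the naming rule covers, the largest rises were in Dgkeos, Hdac4, Aqp11 and Rgcc. Dgkeos (ENSMUSG00000063109, chr11:89064729-89069098), a transcript on the strand opposite Dgke, stood at 338 and 403 CPM against 15.6 and 18.4 (4.36 ± 0.10). Whether the authors' counting used strand is not given in the sources used here. The histone deacetylase Hdac4 (chr1:91928779-92195699) stood at 329 and 256 against 20.3 and 20.8 (3.72 ± 0.11), and the water channel Aqp11 at 434 and 351 against 30.6 and 29.5 (3.6 ± 0.09). Rgcc, a regulator of the cell cycle, stood at 818 and 826 against 79.2 and 96.3. The other named rises were Bcl11b, Btg2, Thy1, Mzb1, Ppt1, Myl10, Skap1, Arpp21, Fam169b, Rnf157 and Ets1, with log2 fold changes between 2.34 and 2.95. The largest fall was in Prtn3, a neutrophil granule protease, at 1.55 CPM (1 UMI) in replicate 1 and 0 UMIs in replicate 2 against 43.9 and 26.3 CPM in all other cells. Next were the growth factor Fgf3 (3.09 and 4.98 CPM against 45.3 and 49.6) and the globin Hbb-bt (37.1 and 43.9 against 613 and 349). Dgkeos differed by 2.76, Aqp11 by 2.37 and Hbb-bt by -5.97 in cells of at most 5000 UMIs, against 4.36, 3.6 and -3.54 with all depths. There, 12 of the called named genes that could be tested there did not pass with the same sign.

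Lists of markers of other cells did not all move one way, and their part in the differences was not tested. Of 14 myeloid and granulocyte genes, 9 were tested, 7 were lower and 0 higher. They summed to 46.4 and 72.8 CPM against 294 and 266 in all other cells, with Elane at 0 UMIs in both libraries. Of 14 natural killer and innate lymphoid genes, 7 were tested, 5 were lower and 0 higher, and the list summed to 171.6 and 145.5 against 304 and 364, most of it Nkg7 (153.01 and 126.6). The erythroid, megakaryocyte and mast-cell list had 3 of 6 tested genes lower and summed to 78.8 and 67.8 against 803 and 519.

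The B-lineage, dendritic and stromal lists summed to more in the Cd3 and pre-TCR cells. The 10 B-lineage genes summed to 105.1 and 79.7 CPM against 35.9 and 36.6, of which Cd79b made 97.4 and 73.7, while Cd79a was at 0. The 10 dendritic genes summed to 649 and 556 against 445 and 442, with Ccr9 and Bst2 higher and 4 of 8 tested genes lower. The 8 stromal genes summed to 130 and 167.4 against 67.5 and 81.5. Among these, Epcam, an adhesion molecule best known from epithelium, stood at 86.5 and 92.7 against 3.82 and 4.09 (4.42 ± 0.21), and in cells of at most 5000 UMIs the difference was 2.82. The 6 gamma-delta T-cell genes in the tables summed to 32.5 and 36.9 against 39.1 and 43.2, with 1 of 5 tested genes lower. Of 9 tested genes of double-positive and mature T cells, 2 were higher and 2 lower, and of 8 tested immediate early and heat shock genes 1 was higher and 3 lower.

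Most S phase genes were lower, and most G2/M genes did not pass. Of 24 tested S phase genes, 20 were lower and 1, Uhrf1, was higher, with a median of -0.71. Of 24 tested G2/M genes, 9 were lower and 0 higher, with a median of -0.62. The G2/M genes summed to 665 and 721 CPM against 1099 and 973. In cells with at least 1500 genes, Ube2c turned to a rise of 0.83 that passed (edgeR adjusted p = 8.6e-05), and Mki67 and Birc5 stood at 0.25 and 0.19 and did not pass. Uhrf1 differed by 0.99, and by 1.99 in cells of at most 5000 UMIs.

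The second comparison asked how the cells differed from cells of the gate whose transcripts resemble the DN2a stage. Bcl11b DN2a-like cells were those in neither CD3 class with at least 1 UMI of Il2ra, at least 1 of Bcl11b and 0 of Spi1, 499 and 997 cells with medians of 9390 and 6817 UMIs. Of these, 450 and 824 had under 3 CD3 UMIs. The others had at least 3 and stayed outside the Cd3 and pre-TCR class for having under 2 UMIs of Ptcra and Rag1. A joint fit of 4 classes over 8 sums tested 10448 genes, of which 24.7% passed (1228 higher, 11.8%, and 1355 lower, 13%). The median log2 fold change over all of them was -0.01. Il2ra, Bcl11b, Spi1 and the 7 rule genes chose these classes and carry no test. Il2ra stood at nearly the same level on both sides, 484 and 462 CPM against 496 and 467, and Bcl11b at 937 and 875 against 369 and 402.

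Notch3 and Dtx1 were higher than in this class too, at 12.9 and 12 and at 4.79 and 6.64 CPM in the DN2a-like cells, with log2 fold changes of 3.41 and 3.81. Of 8 tested Notch response genes, 5 were higher and 0 lower, with a median of 0.95. Of 15 tested T-lineage regulators, 9 were higher, 2 lower and 4 did not pass, with a median of 0.73. Lef1 rose by 3.55, from 8.74 and 12.6 CPM, whereas Tcf7 and Gata3 did not pass, at -0.04 and 0.00. Ccr9 stood at 4.58 and 8.09 in the DN2a-like cells, a difference of 4.2. Of 17 tested receptor signalling genes, 8 were higher and 0 lower, with a median of 0.80, and Cd28 had the largest change of these, 2.83. Cd247, Rag2 and Dntt were higher by 1.62, 2.10 and 1.36.

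Among genes with a mean log2 CPM of at least 5 that the naming rule covers, the largest falls were in Fgf3, Hbb-bt, Cpa3 and Fcer1g. Fgf3 stood at 89.5 and 85.1 CPM in the DN2a-like cells (-4.39), Hbb-bt at 841 and 418 (-3.85), the mast-cell protease gene Cpa3 at 367 and 310 (-3.77) and the Fc receptor chain Fcer1g at 112.6 and 95.5 (-3.11). Of 14 tested progenitor regulators, 8 were lower and 0 higher, with a median of -0.74. Among these, Hhex fell by 1.97, Lyl1 by 2.20 and Nfe2 by 2.03 on the log2 scale. Il7r, which was higher than in all other cells together, was lower than in DN2a-like cells (72.6 and 73.7 against 114.4 and 114.8). In cells of at most 5000 UMIs, 683 genes passed, with 35 DN2a-like cells left in replicate 1. The log2 fold changes there were 1.68 for Dgkeos, 2.01 for Hdac4, 1.46 for Lef1, 1.66 for Ccr9 and 2.33 for Dtx1, each over 1.5 times closer to 0 than with all depths, and 2.81 for Notch3. Cd28 differed by 1.32 there, Lck by 0.61, Cd247 by 0.97 and Dntt by 0.47, where all depths gave 2.83, 1.21, 1.62 and 1.36. Ets2, Runx1, Satb1, Gfi1 and Id3 of the T-lineage regulators and Prkcq, Grap2 and Ubash3a of the 8 higher receptor signalling genes no longer passed. Hhex and Lyl1 differed by -3.55 and -4.19, again from few UMIs in the Cd3 and pre-TCR cells. Kit fell by 2.21 there and by 1.53 with all depths.

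**Figure D3:**
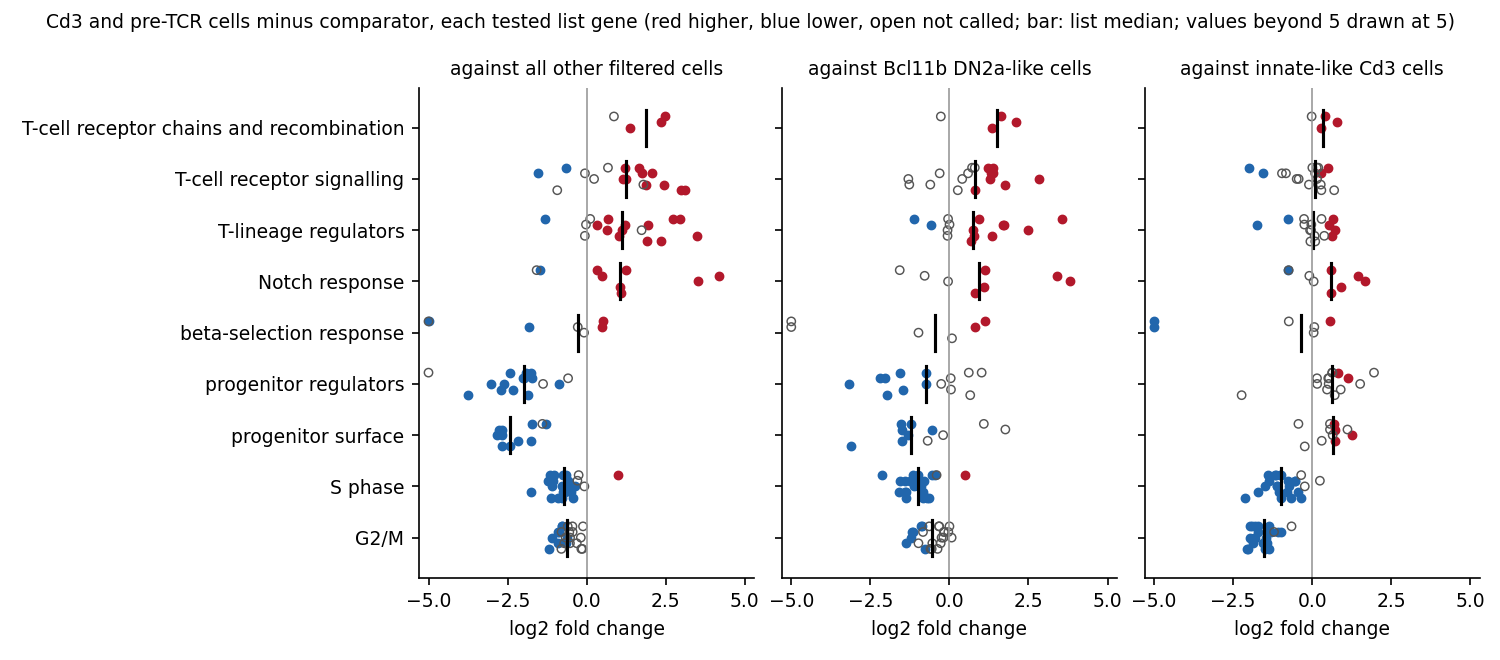
Log2 fold changes of the tested genes of 9 lists in the Cd3 and pre-TCR cells against all other filtered cells, Bcl11b DN2a-like cells and innate-like Cd3 cells, with genes that chose the classes left out. Filled points passed an edgeR adjusted p of 0.05, bars are list medians and values beyond 5 are drawn at 5. The median of the progenitor regulators is -1.99 against all other cells and 0.63 against innate-like Cd3 cells.

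The third comparison was with the innate-like Cd3 cells, which had at least 3 CD3 UMIs and at least 2 of Gzma and Sh2d1a, 292 and 460 cells with medians of 6249.5 and 4726 UMIs. Many of these also met the minimum of 2 UMIs of Ptcra and Rag1, so the classes are not separated by pre-TCR transcripts. Among those, 44 and 58 cells had exactly 2 UMIs of Gzma and Sh2d1a, 22 and 37 had 3, and 70 and 84 had at least 4. Notch3 stood at 136.1 and 105.3 CPM where that sum was 2, and at 59.9 and 56.4 where it was at least 4. Of 10448 genes, 17.7% passed (710 higher, 6.8%, and 1141 lower, 10.9%), with a median log2 fold change of 0.01 over all. Ptcra stood at 658 and 653 CPM in the Cd3 and pre-TCR cells and at 171.3 and 173.6 in the innate-like cells, which the rules had fixed in part. Only 36 genes passed when cells of at most 5000 UMIs were compared, and 586 when every cell was thinned to 2000 UMIs. Depth moves with this comparison, and its part in the calls was not tested further.

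Among genes with a mean log2 CPM of at least 5 that the naming rule covers, cell-cycle genes made up the 10 largest falls. The rule caps Gzma and Sh2d1a by raw UMIs, a cap that deep cells exceed more easily. In cells that met the other criteria, Mki67 was at 16.8 and 40.9 CPM where Gzma and Sh2d1a summed to 0. It was at 162.6 and 142.1 where they summed to at least 4. The part of this sorting in the falls was not tested. Of 24 tested G2/M genes, 22 were lower and 0 higher, with a median log2 fold change of -1.54, and of 24 S phase genes 21 were lower and 0 higher, with a median of -1.0. The G2/M genes summed to 665 and 721 CPM against 2335 and 1827. Ccna2, the cyclin of S and G2, stood at 10.8 and 14 against 87.1 and 64.3 (-2.58), and Mki67 at 27.8 and 44.8 against 159.003 and 106.7 (-1.81). In both genes the libraries of the Cd3 and pre-TCR cells were below those of the innate-like cells, and the share of all genes without overlap was not computed.

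The largest rise by the same rule was in Car2, a carbonic anhydrase, at 29.4 and 22.9 CPM against 6.77 and 10.0 (1.55). Hdac4 stood at 329 and 256 CPM against 89.7 and 101.5 (1.53) and the antiproliferative genes Btg1 and Btg2 were higher by 1.31 and 1.30. Of 9 tested Notch response genes, 5 were higher and 1 lower, with a median of 0.61, led by Dtx1 (1.69) and Notch3 (1.46). Cd247, Rag2 and Dntt were higher by 0.42, 0.79 and 0.30, and Dntt was at -0.11 in cells of at most 5000 UMIs. Of 17 tested receptor signalling genes, 2 were higher, 2 lower and 13 did not pass, and of 16 T-lineage regulators 4 were higher, 2 lower and 10 did not pass. Of 11 tested progenitor surface genes, Kit, Cd34, Cd7 and Tyrobp were higher and 0 were lower, with a median of 0.65, and of 15 progenitor regulators Mef2c and Mycn were higher and 0 lower, with a median of 0.63. Kit differed by 0.69 (edgeR adjusted p = 0.0474). None of these 6 genes passed with thinned cells or in cells of at most 5000 UMIs, where Mef2c stood at -0.32. Zap70 was lower, at 1.55 and 8.97 against 23.7 and 21.6, as were Id3, an inhibitor of E proteins (21.6 and 23.9 against 74 and 72.1), and Tcf7 (280 and 266 against 419 and 471). Lef1 and Thy1 did not pass, at -0.25 and -0.18. In cells of at most 5000 UMIs, 7 of the 61 called named genes that could be tested there passed with the same sign: Hdac4 (0.72), Btg2 (0.52) and Dtx1 (1.09) were higher, and Birc5, Cenpa, Cpa3 and Cd24a were lower. Notch3, at 0.59, and Id3, at -1.41, did not pass there. Bcl11b and Il2ra, higher by 0.66 and 0.61 with all depths, stood at 0.30 and 0.26 there and did not pass either.

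Division also varied within the Cd3 and pre-TCR cells. A G2/M count of at least 3 UMIs after thinning to 2000 UMIs was found in 5.56% and 7.55% of them, against 20.8% and 16.9% of DN2a-like cells and 30.8% and 25.2% of innate-like cells. The few deep cells of the class, 19 and 29 with at least 6000 UMIs, summed to 1863 and 2082 CPM over the G2/M genes. The cells under 6000 UMIs summed to 127.6 and 254. S phase genes summed to 2248 and 1980 in the deep cells and 1056 and 1373 in the others. Of genes outside the rule, Notch3 stood lower in the deep cells, at 64.9 and 54.7 against 172.3 and 156.5, and Bcl11b at 480 and 422 against 1141 and 1030. Kit was higher in the deep cells, at 40 and 93.7 against 11.2 and 22.7. It had a UMI in only 10 and 27 cells of the whole class, with at most 2 and 5 UMIs in a cell, so these levels rest on few UMIs. The rule genes, which are plotted too, had to reach a minimum of UMIs, and that asks for a higher CPM in shallower cells. The split at 6000 UMIs was chosen after the values were seen and carries no test, and doublets were not removed.

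**Figure D4:**
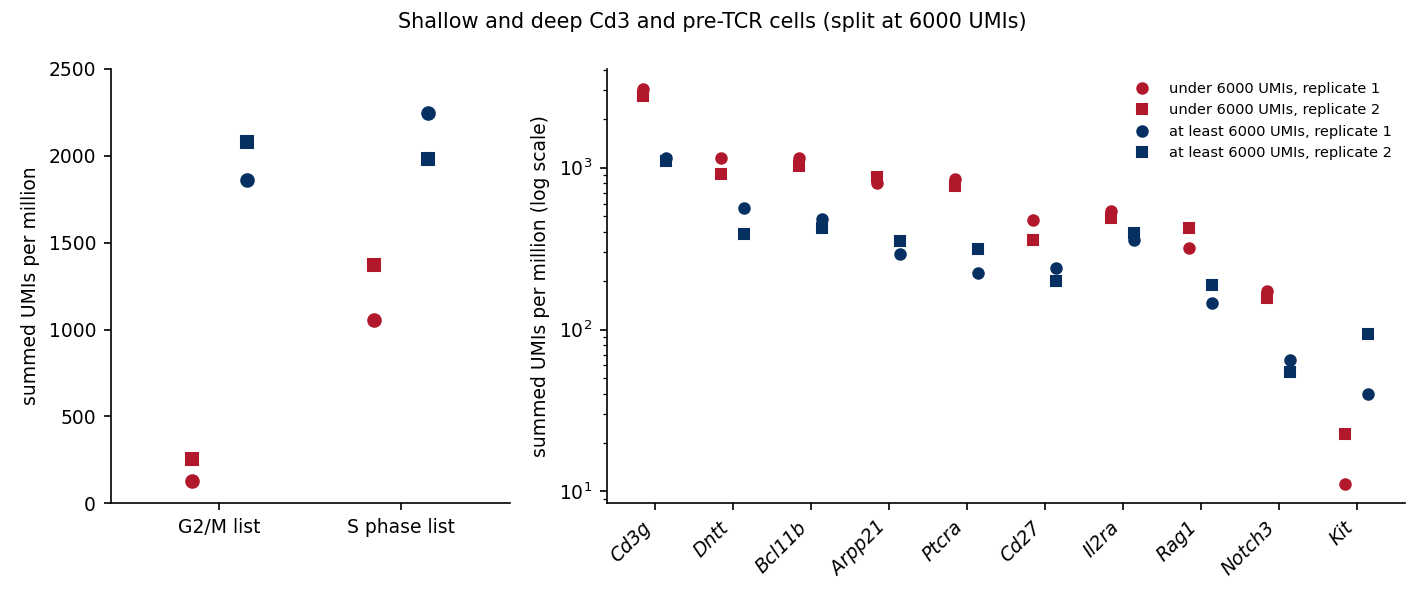
Summed CPM in Cd3 and pre-TCR cells under 6000 UMIs and of at least 6000 UMIs (19 and 29 cells), for the G2/M and S phase lists on a linear axis and for 10 genes on a log axis. Circles are replicate 1 and squares replicate 2. The deep cells reach 1863 and 2082 on the G2/M list, where the others are at 127.6 and 254.

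When each cell's 20 nearest neighbours were found from 2000 variable genes without the 7 rule genes, 32.7% of the neighbours of Cd3 and pre-TCR cells in replicate 1 and 39.3% in replicate 2 were of the same class, a mean of 36% ± 4.63 (SD, n = 2 libraries). The class made up 2.95% and 3.17% of the cells. A further 52.5% and 38.9% of the neighbours were innate-like Cd3 cells and 7.33% and 12.5% were DN2a-like cells. Of these cells, 7 and 9 had no neighbour of their own class. Neighbours of innate-like Cd3 cells were Cd3 and pre-TCR cells in 17% and 18.5%, and those of DN2a-like cells in 1.39% and 2.99%. For the remaining cells the shares were 0.141% and 0.304%. Genes that go with the 7 were still used, so this is a description.

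The C1 cells came from the same gate of WT C57BL/6 mice. Of the C1 cells with at least 1000 genes over 1 FPKM (read fragments scaled by transcript length and depth), 0 had at least 2 of the CD3 genes over 1 FPKM, which allows a share of up to 1.35%. At least 1 CD3 gene was over 1 FPKM in 7 cells, Ptcra in 1 and Rag1 in 4. Bcl11b was over 1 FPKM in 13.5% of the cells and Il2ra in 55.4%. These cells were chosen by FPKM and not by UMIs, and the share is set beside the 10x shares without a comparison.

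In the 12 bulk libraries, Ptcra was found in every gate, and in bulk RNA fewer cells of a type and less RNA per cell cannot be told apart. Ptcra stood at 5.78 FPKM in replicate 1 of Flt3+ ETP and 4.09 in replicate 1 of Flt3- ETP, but at 0.691 and 0.083 in the unnumbered libraries of these gates and at 0.244 and 0.159 in total ETP. In YFP+ DN2a cells it stood at 4.27, 3.33 and 0.605, and in YFP- DN2a cells at 2.52, 0.637 and 0.132. The replicate 1 libraries of the 4 gates other than total ETP were thus the highest of their gate. Notch3 was also highest in the replicate 1 library of each of these 4 gates, with 6.76 and 4.44 FPKM in the replicate 1 libraries of Flt3+ and Flt3- ETP and 0.628 and 0.465 in total ETP. Cd3g reached 52.5 and 39.9 FPKM in those 2 ETP libraries, against 0.831 and 1.17 in total ETP and 51.1, 90.6 and 34.5 in YFP+ DN2a. All 15 named rises of the first comparison were higher in replicate 1 of Flt3+ ETP than in either total ETP library, with median differences of 1.08 and 1.26 on the log2(FPKM + 1) scale. For replicate 1 of Flt3- ETP the number was 12 of 15 against each total ETP library. Against the unnumbered library of its own gate, replicate 1 was higher in 10 of 15 genes in Flt3+ ETP and in Flt3- ETP, and Hdac4, Rgcc, Mzb1, Ppt1 and Skap1 were not higher in either. The share of all genes that were higher in these pairs of libraries was not computed. The counts therefore do not set the 15 genes apart from other genes. The names of the unnumbered columns give only a gate. In each of the 4 gates the labelled library left for that column is the one made with SMART-Seq v4, so if the column is that library, kit and library cannot be told apart there. No test was made.

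**Figure D5:**
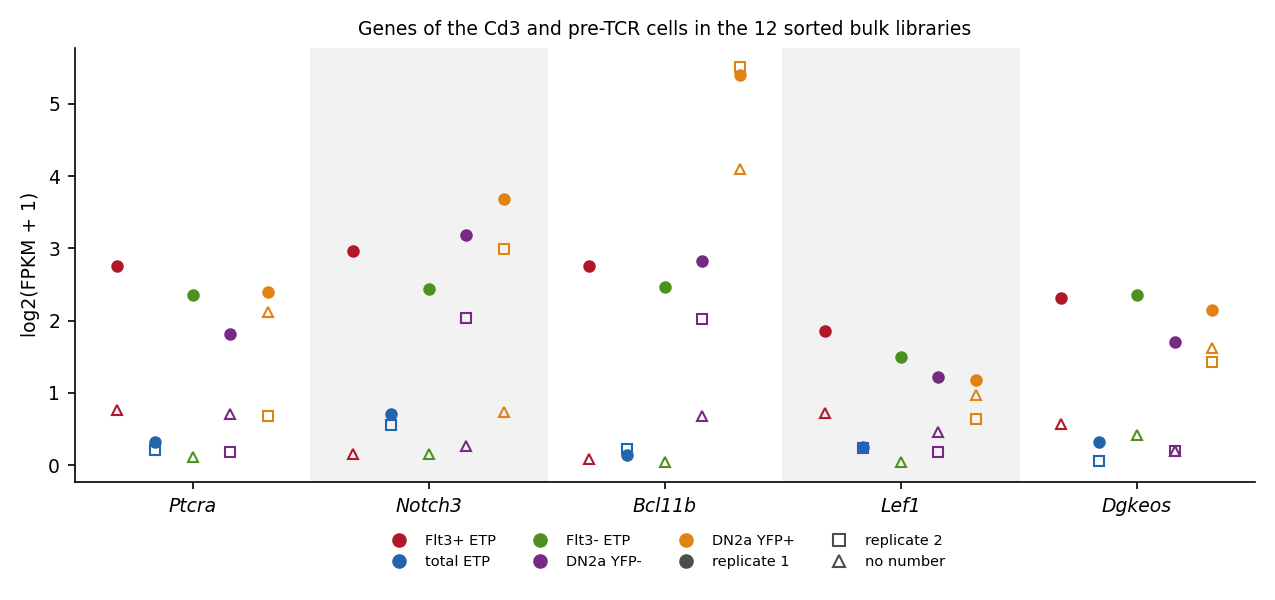
Levels of 5 genes as log2(FPKM + 1) in the 12 bulk libraries, coloured by sort gate. Filled circles are replicate 1, open squares replicate 2 and open triangles libraries without a number. Replicate 1 of Flt3+ and Flt3- ETP stands above the other ETP libraries in all 5 genes, for example at 5.78 and 4.09 FPKM of Ptcra where the others are at most 0.691. The 5 genes were picked for drawing. Among the named rises, Hdac4, Rgcc, Mzb1, Ppt1 and Skap1, which are not drawn, were not above the unnumbered library in either gate.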

How the data were processed

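Per the submitters' processing notes and the labels, the 10x data came from Chromium v2 libraries processed with Cell Ranger 2.0 on mm10. The deposited 10x values are UMI counts per gene and barcode, not normalized by the authors. For bulk and C1 libraries the authors deposited FPKM. The notes name STAR 2.4.0, RSEM 1.2.25, HOMER, SAMtools and edgeR 3.6.8 without their order.

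UMI counts were summed per class of cells and library and tested with edgeR 4.0.16 in R 4.3.3 (TMM, filterByExpr, glmQLFit and glmQLFTest, Benjamini-Hochberg over all genes), with the library as a block because the sums of a library share its preparation and sequencing. Levels are CPM of the summed UMIs. The SE of a log2 fold change is its size divided by the square root of the test's F statistic. The libraries held 43734920 and 55522900 UMIs. No doublet caller was run. Intervals are exact binomial (Clopper-Pearson, 95%) and cover counting error only. Thinned shares use 2000 UMIs per cell, drawn without replacement with a fixed seed. Neighbours use log-normalized counts, 2000 variable genes and 30 principal components (scikit-learn 1.9.0). The naming rule took, of the first comparison, 15 rises and 10 falls of greatest size and 10 of each of the others, with logCPM of at least 5, the same sign in both libraries and no predicted or clone name, besides members of 7 lists of T-cell and progenitor genes and up to 4 of each other list by smallest adjusted p. The members, classes and lists were chosen with earlier results of these data known. On simulated counts the fit recovered 49.7% of genes changed by 1 and 75.8% of those changed by 2 on the log2 scale among 11947 and 11952 genes of the first comparison, with 3 and 8 false calls. For the second comparison it recovered 58.5% and 86.7% among 10261 and 10257 genes, with 4 and 9 false calls. These counts were drawn with 1 dispersion for every gene, close to the fitted one. They had no library effect and, apart from the changed genes, the same profile in all classes. The false calls therefore do not measure error between mice or spread that differs between genes. Gene spans are those of GENCODE M21 on GRCm38, the assembly of mm10. Alternatives were RLE and DESeq2 1.42.0 size factors and tests, no filter, no block, thinning, stricter cells and thresholds, and, added after seeing the data, cells of at most 5000 UMIs, DN2a-like cells under 3 CD3 UMIs, shared barcodes left out and thinned neighbours.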

Additional observations from a re-analysis of the deposited data

Results flagged for a closer look

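In 10x replicate 2, 38 of the 427 barcodes left out for having under 1000 genes held the CD3, Ptcra and Rag1, and Gzma and Sh2d1a counts of the rule, 8.90% of them, with a median of 2025.5 UMIs. In replicate 1 the number was 0 of 27. These barcodes are outside the comparisons.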

How the results depend on the processing

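The block pairs the sums of a library, which share its preparation and sequencing. Without the block, 2027 genes passed against all other cells in place of 2708, 1684 in place of 2583 against DN2a-like cells and 989 in place of 1851 against innate-like cells. With DESeq2, 1229 genes passed in the first comparison. With every cell thinned to 2000 UMIs, 1592 passed in the second and 586 in the third. With at least 1500 genes per cell, 700, 594 and 753 passed. With at least 4 UMIs of Ptcra and Rag1, 1573 passed in the first and 1535 in the second. With cells of at most 5000 UMIs, an alternative chosen after seeing the data, 683 passed in the second and 36 in the third. The mean share of the class over the libraries was 4.0% with at least 1 UMI of Ptcra and Rag1, 1.48% with at least 4 and 1.03% with at least 1500 genes, and 2.95% to 3.17% with either library left out. With cells thinned to 2000 UMIs, the mean share with a UMI was 4.60% for Kit, 0.725% for Cd44, 60.6% for Il2ra, 82.5% for Bcl11b and 28.1% for Notch3.

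Some named genes changed sign, and the cause was not tested. With at least 1500 genes per cell, the log2 fold changes against all other cells were 0.19 for Birc5, 0.83 for Ube2c, 0.042 for Cenpf, 0.25 for Mki67, 0.048 for Spc25 and 0.31 for Cenpa. Against DN2a-like cells they were 0.24 for Birc5, 0.034 for Cenpf, 0.18 for Mki67, 0.52 for Cd34 and 0.75 for Cenpa, and against innate-like cells 1.43 for Ccl5 and -0.034 for Lat. In cells of at most 5000 UMIs they were -0.23 for Cd82 and -0.16 for Cd1d1 against all other cells, -2.91 for Car2 against DN2a-like cells, and -0.062 for Klf3, -0.11 for Dntt, -0.32 for Mef2c and -0.11 for Cd1d1 against innate-like cells. Of these, Ube2c (edgeR adjusted p = 8.6e-05), Cenpa against DN2a-like cells (0.00069), Car2 (0.00012) and Ccl5 (0.0479) passed with the turned sign. Leaving out a library gives fold changes with no test and no count of calls, since no residual degrees of freedom remain. No called named gene changed sign. For the named rises and falls this was fixed in advance, because the naming rule asked for the same sign in both libraries. Only genes named through the lists could have changed sign. At the depth of these cells, genes with few UMIs in their sums of 647025 and 1003419 UMIs were not resolved.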
